A study of Mus musculus with 2 samples.

Results

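The MHC class I presentation genes are the genes whose products build class I molecules, load them with peptide or switch on their transcription. They were followed here as 10 symbols, H2-D1, H2-K1, B2m, Tap1, Tap2, Tapbp, Nlrc5, H2-T23, H2-Q7 and H2-Q4, taken by name from the count tables, and all 10 were among the 12730 genes tested in microglia-like cells. The data are single-cell transcriptomes of CD45+ brain cells from 12-week-old mice, purified on Percoll, sorted without dead cells and tagged per mouse before pooling into a single 3′ library. The 4 Arpc4ΔCx3cr1 mice were Tg(Cx3cr1-Cre) Arpc4 fl/fl, with Cre heterozygous, and the 4 controls were Arpc4 fl/fl littermates without Cre, so that both genotypes carry the floxed alleles of Arpc4, a subunit of the actin-nucleating Arp2/3 complex. The Cre transgene follows the Cx3cr1 promoter, which is active in microglia and also in other brain macrophages and in monocytes, so Cre is not limited to microglia. The comparison asks how presentation genes differ in brain immune cells when microglia lack this complex.

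A classical class I molecule is a heavy chain paired with β2-microglobulin that shows peptides from inside the cell to CD8+ T cells. Peptides are cut by the proteasome, pumped into the endoplasmic reticulum by the TAP transporter and fitted into the groove with the help of tapasin, and interferons raise transcription of most genes of this route. Resting microglia are known for low class I levels, which go up when the cells are activated.

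The control mice had 5251527, 11148525, 10695670 and 10419683 UMIs (unique transcript molecules) on genes. The Arpc4ΔCx3cr1 mice had 12797266, 10768644, 12878691 and 12528757. Of 19864 barcodes given to a mouse, 19863 were kept, 9443 from controls and 10420 from Arpc4ΔCx3cr1 mice, and 0 barcodes were shared between mice. Microglia-like cells, named from their markers, numbered 7793 and 9240, and their sums per mouse held 4189469 to 11690546 UMIs. A median cell held 3608 to 3723 UMIs in control mice and 3805 to 4364 in Arpc4ΔCx3cr1 mice, with 0.520 to 0.583% mitochondrial UMIs against 0.951 to 1.14%. Levels are given as CPM, the UMIs of a gene scaled to a fixed total, of a sum over the cells of a class in a mouse. Since 3′ counts also depend on how well a transcript's end is captured, levels were compared between mice and classes and not between genes.

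Arpc4, the targeted gene (chr6:113378115-113390448, mm10), had 236, 216, 225 and 222 CPM in the microglia-like cells of the controls. In the Arpc4ΔCx3cr1 mice it had 153, 148, 143 and 138 CPM. Each Arpc4ΔCx3cr1 mouse lay below each control (log2 fold change −0.63 ± 0.05 SE, adjusted p = 5.51e-06, edgeR). Counts of 3′ ends do not measure whether the floxed part is deleted, and Ttll3 overlaps Arpc4 on the same strand, so this value checks the labels only in part. In the other classes Arpc4 did not pass. CAM-like cells had 264, 189, 239 and 204 CPM in controls and 313, 229, 273 and 260.4 CPM in Arpc4ΔCx3cr1 mice (0.27 ± 0.21, adjusted p = 0.701, edgeR). The log2 fold change was −0.0036 in monocyte-like cells (adjusted p = 1.00, edgeR), −0.29 in T cell-like cells (adjusted p = 0.600) and −0.18 in proliferating cells (adjusted p = 0.765). Xist, which is made from the inactive X chromosome of females, reached 1444 CPM in the microglia-like cells of Arpc4ΔCx3cr1 mouse 1 and at most 13.8 CPM in those of the other 7. A female was among the Arpc4ΔCx3cr1 mice per the methods, where it was left out, and the labels do not say which. All mice were kept here, and fold changes of the members in microglia-like cells are also given without Arpc4ΔCx3cr1 mouse 1.

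In microglia-like cells, 9 of the 10 members were higher in Arpc4ΔCx3cr1 mice and 0 were lower (edgeR, adjusted p below 0.05), where 46.0% of the 12730 genes tested passed, 2911 higher and 2946 lower. DESeq2 also passed 9. The 10 members had a median log2 fold change of 1.72, against −0.0071 over all genes tested. For the same 9 members the mice of the 2 genotypes did not overlap, which held for 44.2% of all genes. With library totals in place of TMM scaling, 34.5% of the genes that passed were higher instead of 49.7%, the median of all genes moved to −0.11, and 9 members again passed.

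H2-D1 encodes a classical heavy chain (ENSMUSG00000073411, chr17:35262730-35267499, mm10). Its promoter, 250 bases before to 50 after the start in RefSeq (GRCm38.p6, chr17:35262844-35263143, plus strand), is shown because the heavy chain genes moved together. Capitals mark matches, on either strand, to AANNGAAA (the core bound by interferon regulatory factors), TGACG (the core of the X2 box) and CCAAT (the Y box).

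H2-D1: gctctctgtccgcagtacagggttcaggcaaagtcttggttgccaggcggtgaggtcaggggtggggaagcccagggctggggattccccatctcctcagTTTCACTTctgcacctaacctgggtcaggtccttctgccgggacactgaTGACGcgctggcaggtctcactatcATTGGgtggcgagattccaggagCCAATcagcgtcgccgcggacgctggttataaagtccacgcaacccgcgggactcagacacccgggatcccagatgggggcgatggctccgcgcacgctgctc

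Control microglia-like cells held 495, 449.7, 527 and 503 CPM of H2-D1. Those of Arpc4ΔCx3cr1 mice held 1834, 2106, 2165 and 2315 CPM. The lowest Arpc4ΔCx3cr1 mouse, mouse 1, still lay far above the highest control, and the log2 fold change was 2.09 ± 0.08 (adjusted p = 4.81e-08, edgeR; 2.16 without mouse 1). Of 46 windows of 50 bases in the last 500 of its transcripts, 6 also occur in other genes, H2-K1 among them. Some of its UMIs could thus belong elsewhere, and their share was not measured.

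H2-K1, the other classical heavy chain of this list (ENSMUSG00000061232, chr17:33996017-34000347, mm10, minus strand), carries the same motifs in the same order in its promoter (RefSeq, GRCm38.p6, chr17:34000298-34000597, minus strand), with capitals as for H2-D1.

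H2-K1: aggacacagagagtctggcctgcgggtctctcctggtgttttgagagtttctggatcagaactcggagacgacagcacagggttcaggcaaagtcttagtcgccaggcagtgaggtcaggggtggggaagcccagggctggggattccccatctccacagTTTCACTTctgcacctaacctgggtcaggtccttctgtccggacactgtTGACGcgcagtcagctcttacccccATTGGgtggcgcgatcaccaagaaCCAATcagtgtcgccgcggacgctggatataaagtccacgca

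The 4 controls had 344, 315, 372 and 373 CPM of H2-K1. The Arpc4ΔCx3cr1 mice had 1125, 1392, 1399.9 and 1505 CPM. As for H2-D1, mouse 1 was the lowest of its genotype and the groups were well apart (log2 fold change 1.95 ± 0.09, adjusted p = 1.60e-07, edgeR; 2.03 without mouse 1). None of its 46 end windows was found in another gene.

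B2m encodes β2-microglobulin, the light chain that all heavy chains here need to reach the surface (ENSMUSG00000060802, chr2:122147686-122153083, mm10). Its promoter lies on another chromosome than the heavy chains (RefSeq, GRCm38.p6, chr2:122147437-122147736, plus strand) and again holds the 3 motifs, marked in capitals.

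B2m: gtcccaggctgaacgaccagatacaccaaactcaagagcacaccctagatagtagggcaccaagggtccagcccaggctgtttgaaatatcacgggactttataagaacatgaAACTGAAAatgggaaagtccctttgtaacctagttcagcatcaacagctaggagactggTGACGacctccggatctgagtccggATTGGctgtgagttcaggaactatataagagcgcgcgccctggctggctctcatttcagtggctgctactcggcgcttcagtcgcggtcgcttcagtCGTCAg

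The controls had 1152, 1082, 1195 and 1139.9 CPM of B2m. The Arpc4ΔCx3cr1 mice had 2810.5, 3014, 3342 and 3603 CPM. No mouse of one genotype came near the other, and B2m rose by 1.48 ± 0.08 on the log2 scale (adjusted p = 2.66e-07, edgeR; 1.54 without mouse 1), less than either classical heavy chain.

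Tap1 and Tap2 are the paired subunits of the peptide pump. Tap1 (ENSMUSG00000037321, chr17:34187553-34197225, mm10) is shown because the members of its pair differed. The promoter (RefSeq, GRCm38.p6, chr17:34187306-34187605, plus strand) has TGACG and CCAAT in capitals and no AANNGAAA in this window.

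Tap1: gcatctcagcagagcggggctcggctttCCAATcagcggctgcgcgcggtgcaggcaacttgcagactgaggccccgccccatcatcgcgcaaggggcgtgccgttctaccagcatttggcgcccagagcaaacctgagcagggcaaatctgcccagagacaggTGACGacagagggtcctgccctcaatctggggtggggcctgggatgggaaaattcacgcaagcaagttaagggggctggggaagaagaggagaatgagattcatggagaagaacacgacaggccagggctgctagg

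In control microglia-like cells Tap1 had 26.6, 23.2, 24.6 and 25.3 CPM. In those of Arpc4ΔCx3cr1 mice it had 47.1, 51.8, 48.4 and 52.8 CPM. The groups did not overlap, and Tap1 rose by 1.01 ± 0.07 (adjusted p = 9.58e-07, edgeR; 1.05 without mouse 1). Tap2 (ENSMUSG00000024339, chr17:34203527-34216321, mm10) had 58.8, 57.7, 64.2 and 61.0 CPM in controls and 63.1, 66.9, 66.8 and 62.8 CPM in Arpc4ΔCx3cr1 mice. These ranges overlapped, and its log2 fold change of 0.10 ± 0.05 did not pass (adjusted p = 0.143, edgeR; 0.12 without mouse 1). Under library totals it was −0.0040, and in cells thinned to 2000 UMIs it was 0.19 (adjusted p = 0.0449, edgeR), so the direction of Tap2 depends on the scaling, and it passed only in thinned cells, with adjusted p from 0.0449 to 0.962 over 19 alternatives.

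Tapbp encodes tapasin, which bridges the empty heavy chain to the pump (ENSMUSG00000024308, chr17:33915899-33929292, mm10). It had 109, 98.3, 98.4 and 102 CPM in control mice and 117, 131, 125 and 141 CPM in Arpc4ΔCx3cr1 mice. The groups were close but did not overlap, and the rise was 0.34 ± 0.07 (adjusted p = 0.00153, edgeR; 0.39 without mouse 1). Zbtb22 overlaps Tapbp on the same strand, so its UMIs could include some of that gene.

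Nlrc5 encodes the transactivator that binds the promoters of class I genes together with the RFX and NF-Y factors (ENSMUSG00000074151, chr8:94434356-94527272, mm10), and the microRNA gene Mir7072 overlaps it on the same strand. Controls had 7.0, 10.1, 17.2 and 12.4 CPM of Nlrc5. The Arpc4ΔCx3cr1 mice had 84.1, 87.0, 103 and 104 CPM. The controls spread widely for their level, yet the highest of them stayed far below the lowest Arpc4ΔCx3cr1 mouse, and the log2 fold change was 2.96 ± 0.18 (adjusted p = 6.23e-07, edgeR; 3.01 without mouse 1).

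The nonclassical heavy chains of the list are H2-T23, which shows leader peptides of other class I chains to receptors of natural killer cells, and H2-Q7 and H2-Q4 of the Q region. H2-T23 (ENSMUSG00000067212, chr17:36029773-36032855, mm10) had 106, 104, 107 and 98.5 CPM in controls and 187, 201, 181 and 203 CPM in Arpc4ΔCx3cr1 mice. These values did not overlap, and the rise was 0.89 ± 0.06 (adjusted p = 7.47e-07, edgeR; 0.91 without mouse 1). Of its 46 end windows, 9 occur in other genes. The promoters of H2-Q7 (ENSMUSG00000060550; RefSeq, GRCm38.p6, chr17:35438905-35439204, plus strand) and H2-Q4 (ENSMUSG00000035929; chr17:35379367-35379666, plus strand) are set side by side, since both rose. Both hold matches to each motif, but TGACG is placed differently. It begins ahead of the CCAAT matches in H2-Q7 (base 187, with CCAAT from 211) and behind the first of them in H2-Q4 (base 178, with CCAAT from 172).

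H2-Q7: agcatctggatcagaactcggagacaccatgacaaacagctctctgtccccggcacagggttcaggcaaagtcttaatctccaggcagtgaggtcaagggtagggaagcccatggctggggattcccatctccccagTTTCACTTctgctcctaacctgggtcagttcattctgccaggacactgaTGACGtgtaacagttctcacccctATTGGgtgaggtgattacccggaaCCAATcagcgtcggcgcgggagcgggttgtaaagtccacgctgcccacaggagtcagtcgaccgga
H2-Q4: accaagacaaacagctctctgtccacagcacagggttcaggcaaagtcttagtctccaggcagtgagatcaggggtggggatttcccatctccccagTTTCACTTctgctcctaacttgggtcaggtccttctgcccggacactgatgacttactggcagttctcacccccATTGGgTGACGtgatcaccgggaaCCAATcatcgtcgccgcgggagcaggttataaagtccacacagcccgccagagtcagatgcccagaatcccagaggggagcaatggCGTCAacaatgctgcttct

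H2-Q7 had 12.8, 10.2, 11.3 and 14.4 CPM in control microglia-like cells. In Arpc4ΔCx3cr1 mice it had 97.5, 167, 138 and 184 CPM. Mouse 1 was again the lowest of its genotype, and all 4 were well above the controls (log2 fold change 3.59 ± 0.20, adjusted p = 3.77e-07, edgeR; 3.75 without mouse 1). H2-Q4 had 14, 10.0, 11.2 and 11.4 CPM in controls and 37.8, 54.8, 58.6 and 62.8 CPM in Arpc4ΔCx3cr1 mice. The groups did not overlap, and H2-Q4 rose by 2.23 ± 0.16 (adjusted p = 1.62e-06, edgeR; 2.37 without mouse 1). Both genes belong to a family of near-identical copies. Of 46 end windows, 3 of H2-Q7 occur in H2-Q5, and 16 of H2-Q4 occur in other genes, H2-Q6 among them, so their values are uncertain as values of a single gene.

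**Figure D1:**
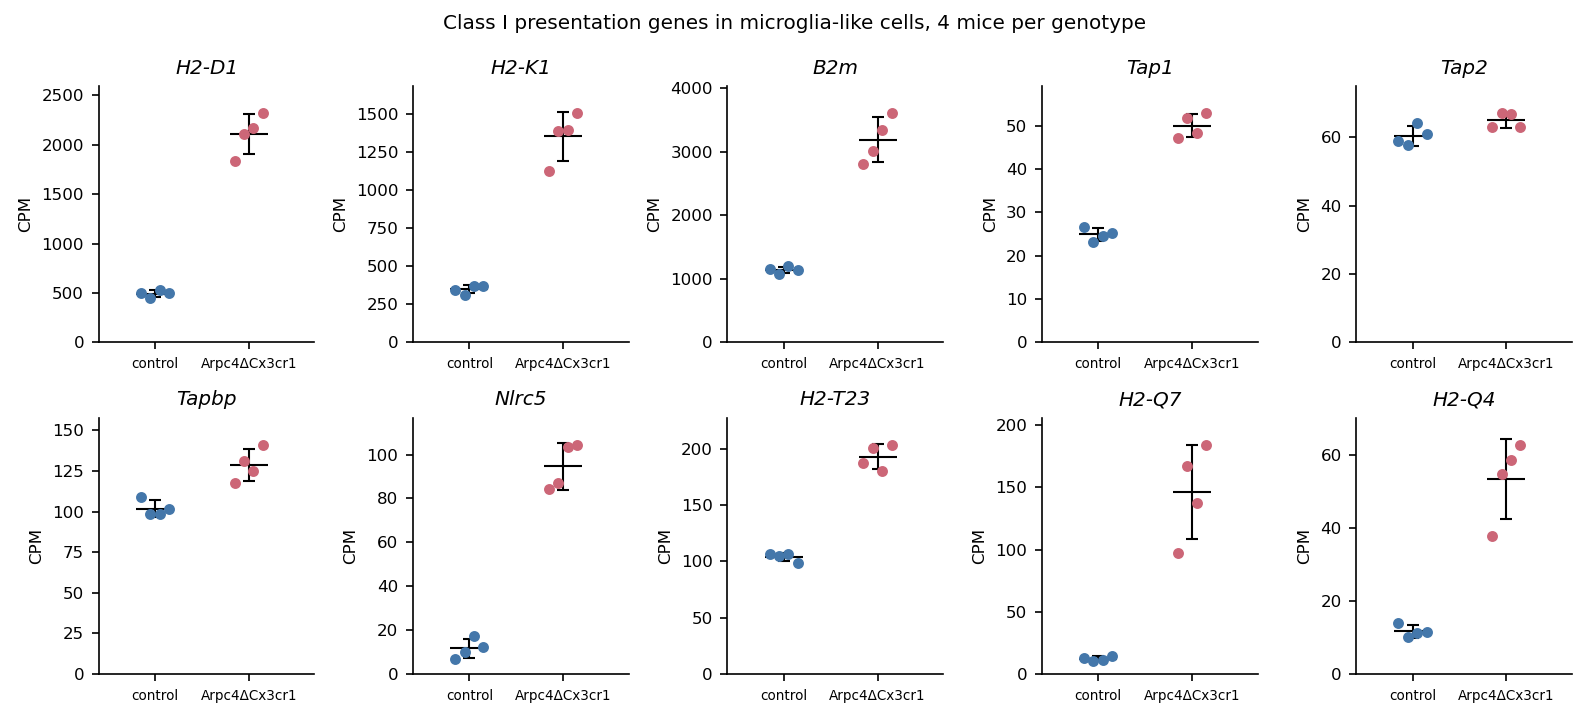
Levels of the 10 members (CPM, axes from 0) in microglia-like cells, 1 point per mouse, 4 mice per genotype, with the mean (long bar) and SD. The genotypes are apart in 9 panels, and in that of Tap2 the controls reach 64.2 CPM while the Arpc4ΔCx3cr1 mice start at 62.8 CPM.

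RefSeq promoters were matched for 8 of the 10 members, all but Tap2 and Nlrc5. AANNGAAA was found in 6 of the 8, TGACG in 6 and CCAAT in 8, where 23.9, 20.8 and 37.4% of all 32851 promoters of 300 bases hold them. All 3 motifs were in the promoters of 5 members (H2-D1, H2-K1, B2m, H2-Q7 and H2-Q4) and in 1.59% of all promoters. In H2-D1 they begin at bases 101, 150 and 175 of the window, and in H2-K1 at 161, 210 and 235. In H2-Q4, TGACG begins at base 178, behind the CCAAT match at base 172. The motifs were chosen after these sequences were seen, so the shares over all promoters are a description and no test of enrichment. The heavy chain genes are also related to each other, so their matches are not independent. A match describes the letters only, and binding was not measured.

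The summed class I level was also read cell by cell, after each microglia-like cell was thinned to 2000 UMIs, which left out 287 control and 329 Arpc4ΔCx3cr1 cells. The median cell held 4 class I UMIs in each control and 11, 14, 14 and 15 in Arpc4ΔCx3cr1 mice. At the 10% point of cells, ordered from low to high, the values were 1 in each control and 6, 7, 8 and 8 in Arpc4ΔCx3cr1 mice. At the 90% point they were 8, 8, 9 and 9 in controls and 20, 23, 22.2 and 25 in Arpc4ΔCx3cr1 mice. Low, middle and high cells of each Arpc4ΔCx3cr1 mouse thus lay above those of each control, by 6.25, 9.50 and 14.05 UMIs on average. Each difference had p = 0.0286 in an exact two-sided permutation test over mice, also after adjustment over the 3 quantiles, the smallest p that 4 against 4 mice allow. Without thinning, the median cell held 8 class I UMIs in each control and 25, 27, 31 and 34 in the Arpc4ΔCx3cr1 mice, which also had the deeper cells.

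**Figure D2:**
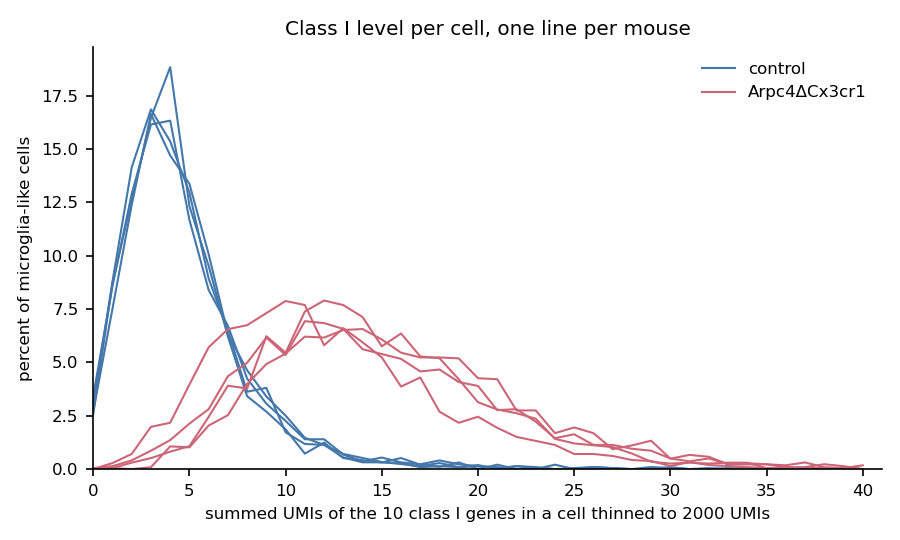
Share of microglia-like cells (percent) by the summed UMIs of the 10 class I genes in a cell thinned to 2000 UMIs, 1 line per mouse. The 4 control lines have medians of 4 UMIs, and the Arpc4ΔCx3cr1 lines are broad, with medians of 11 to 15 UMIs and that of mouse 1 lowest.

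Microglia-like cells were then clustered again without the class I genes. Of 12 clusters, 4 (clusters 1, 2, 4 and 7) held mostly control cells and 8 held mostly Arpc4ΔCx3cr1 cells, and cluster 3, led by Xist, held 1624 cells of Arpc4ΔCx3cr1 mouse 1. Cluster levels are a description, since clusters form from genes that differ between genotypes. H2-D1 ran from 357 to 689.5 CPM over the 4 control clusters and from 1530 to 3039 CPM over the other 8, without overlap. B2m ran from 979 to 1559 CPM and from 2275 to 4691 CPM. For Nlrc5 the 4 control clusters had 4.03 to 10.1 CPM, and the other 8 reached from 10.3 CPM in cluster 9 to 307 CPM in cluster 10. Cluster 9, where H2-D1, H2-K1 and B2m were highest of all 12, was thus also the one with the least Nlrc5 among the 8. It was the shallowest of them, with a median of 2592 UMIs per cell against 5178 in cluster 0. Along the control clusters 1, 2, 4 and 7 the median went from 4986 over 3738 and 3031 to 2454 UMIs, while H2-D1 went up from 357 to 689.5 CPM and Nlrc5 went down from 10.1 to 4.03 CPM. The part of depth in these orders was not tested.

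Cluster 10 was the highest in interferon-stimulated genes and was led by Cxcl10, Iigp1 and Rsad2. It made up 5.87, 4.15, 3.19 and 4.19% of the microglia-like cells of the Arpc4ΔCx3cr1 mice and 0.704, 0.176, 0.182 and 0.343% of those of the controls. Within the Arpc4ΔCx3cr1 mice, Nlrc5 was 3.52 to 4.07 times as high in it as in the remaining microglia-like cells of that mouse. Tap1 was 2.32 to 3.12 times as high, while H2-D1 was only 1.11 to 1.16 times and B2m 1.06 to 1.16 times as high. Without cluster 10, the same test passed 9 members. Some control cells fell into clusters of mostly Arpc4ΔCx3cr1 cells. In cluster 0, 93 cells of the 4 controls had 1080.0 to 1398 CPM of H2-D1, against 1525 to 1972 CPM in the 2943 Arpc4ΔCx3cr1 cells there. In cluster 8, led by Ccl4, the controls had 539 to 873 CPM and the Arpc4ΔCx3cr1 mice 1886 to 2112 CPM. How many such cells carry the tag of another mouse was not tested.

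**Figure D3:**
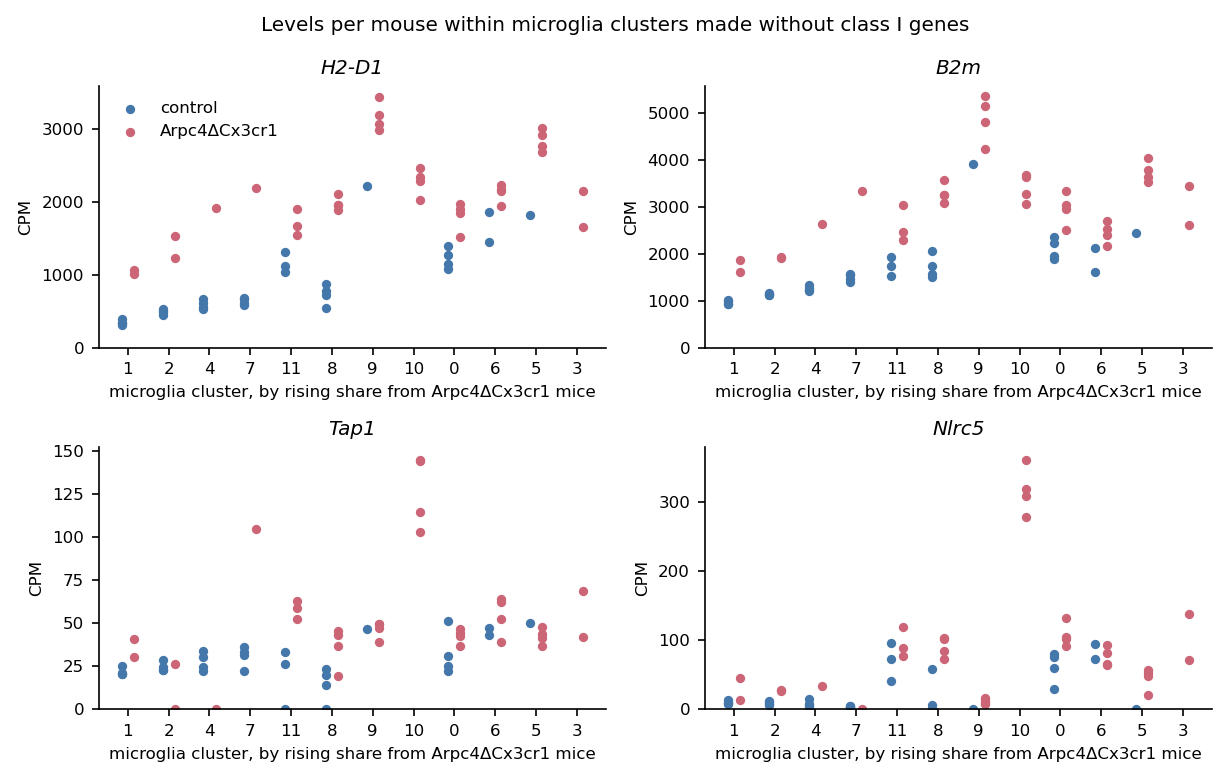
Levels (CPM, axes from 0) of H2-D1, B2m, Tap1 and Nlrc5 in the 12 microglia clusters, ordered by the share of cells from Arpc4ΔCx3cr1 mice, 1 point per mouse with at least 10 cells in the cluster. H2-D1 and B2m reach their highest points in cluster 9, whereas Tap1 and Nlrc5 peak in cluster 10, at 132 and 307 CPM over all its cells.

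Other genes of the route were read from lists. Of 9 tested class I heavy chains and class I-like molecules beside the members, 5 rose and 3 fell, with a median of 0.55, where 46.0% of all genes passed. H2-Q6 (5.04 ± 1.33 CPM in controls, 52.4 ± 13.6 in Arpc4ΔCx3cr1 mice, SD, n = 4 each), H2-M3 (62.9 ± 3.92 and 147 ± 21.6) and H2-T22 (23.4 ± 1.98 and 50.1 ± 3.22) rose. Cd1d1, which presents lipids, fell by 1.51 on the log2 scale, Fcgrt, the neonatal Fc receptor, by 1.02, and Hfe, which acts on iron uptake, by 0.77. These 3 pair with β2-microglobulin but do not show peptides to CD8+ T cells.

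Of 14 genes of peptide supply and loading, 4 rose and 3 fell (median −0.026), a share of 50% beside the 46.0% of all genes. Psme1, a subunit of the proteasome activator PA28, rose by 0.73 ± 0.05, and the immunoproteasome subunits Psmb9 and Psmb8 rose by 0.56 ± 0.06 and 0.53 ± 0.06. Psmb5 and Psmb7, whose places immunoproteasome subunits take, fell by 0.21 and 0.18, and the chaperone Canx fell by 0.14. Of 15 regulators of class I transcription, 4 rose and 4 fell (median −0.072). Relb rose from 40.9 ± 4.24 to 67.3 ± 12.3 CPM and Irf1 from 40.7 ± 1.48 to 55.1 ± 2.39 CPM. Nfyb, Rfxank and Rela fell by 0.45, 0.35 and 0.29 on the log2 scale.

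Interferon receptors and signalling genes passed in 10 of 12 cases, 8 higher and 2 lower (median 0.36), against 46.0% of all genes. Usp18, Stat2 and Irf9 rose by 3.28 ± 0.12, 1.69 ± 0.16 and 0.68 ± 0.06, and Ifngr1 and Jak1 fell by 0.48 and 0.24. All 14 interferon-stimulated genes tested rose, with a median of 3.15, among them Ifi44 (4.84 ± 0.26), Oasl2 (3.55 ± 0.13) and Ifi204 (3.36 ± 0.18). Arpc4ΔCx3cr1 mouse 1 was the highest of its genotype for 12 of these 14 (Ifitm3 646 CPM against 339 to 478 in the other 3), whereas it was the lowest of its genotype for 8 of the 10 members, all but Tap2 and H2-T23. How often this mouse, the one with high Xist, was the highest or lowest of its genotype over all genes was not counted. Of the genes listed as receptors for class I, 3 were tested and 2 passed, against 46.0% of all genes. Lilrb4a, not an established class I receptor, rose by 3.89 ± 0.30, Klrd1 fell by 2.52, and Pirb did not pass.

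Outside microglia, T cell-like cells (a class led by Gzma, Nkg7 and Cd3g, so natural killer cells may be within it) had sums of 117166 to 278340 UMIs. There 2 of 10 members rose, where 3.88% of 4204 genes tested passed, and the median log2 fold change of the members was 0.35 against 0.027 over all genes. B2m had 2395, 1634, 2162 and 2102 CPM in controls and 2755, 3210.1, 2863 and 3216 CPM in the Arpc4ΔCx3cr1 mice. The genotypes did not overlap (log2 fold change 0.54 ± 0.12, adjusted p = 0.00564, edgeR). H2-D1 had 2041, 1705, 2139.9 and 1845 CPM in controls and 2089, 3179, 3011 and 2584 CPM in Arpc4ΔCx3cr1 mice. These groups overlapped in Arpc4ΔCx3cr1 mouse 1 and control mouse 3, and H2-D1 rose by 0.49 ± 0.13 (adjusted p = 0.0218, edgeR). That call was lost with DESeq2's Wald test, with the replicate number as a block, and without control mouse 2 or 4 or Arpc4ΔCx3cr1 mouse 2 or 3. Over 13 alternatives its adjusted p (edgeR or DESeq2) ran from 0.00272 to 0.127. H2-K1 did not overlap between genotypes and missed the threshold (0.35 ± 0.11, adjusted p = 0.0670, edgeR), which it passed without control mouse 3.

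In CAM-like cells, the macrophages at the borders of the brain, 7 members were tested and 0 passed with edgeR or with DESeq2, against 1.04% of 3468 genes. Of the 7, 4 had an unadjusted p below 0.05 (H2-T23, H2-K1, H2-D1 and B2m), as did 10.7% of all genes. Their log2 fold changes were 0.62 ± 0.22, 0.58 ± 0.21, 0.44 ± 0.21 and 0.43 ± 0.20, and the median of the 7 was 0.43 against 0.021 over all genes. H2-T23 had 181, 229, 247 and 192 CPM in controls and 423, 305, 264 and 312 CPM in Arpc4ΔCx3cr1 mice, without overlap. CAM-like sums of the Arpc4ΔCx3cr1 mice held 86286 to 150502 UMIs, and the part of this depth in the lack of calls was not tested.

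Monocyte-like cells were led by Plac8, S100a6 and Saa3, with Napsa, H2-Eb1, H2-Aa and Cd209a also among the leading genes. Whether dendritic cells are within this class was not tested. It had 8 tested members, of which 0 passed with edgeR or with DESeq2's Wald test, against 8.47% of 3068 genes. An unadjusted p below 0.05 was found for 2 of the 8, near the 20.7% of all genes. With library totals, 69.2% of the genes that passed were higher instead of 39.6%, the median of all genes moved to 0.20, and 2 members passed (H2-D1 and B2m). The 2 with an unadjusted p below 0.05 went opposite ways, B2m at 0.34 ± 0.13 and H2-T23 at −0.48 ± 0.22, and the median of the 8 was −0.074 against 0.0045 over all genes. Monocyte-like sums of Arpc4ΔCx3cr1 mice ran from 88958 to 808444 UMIs.

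In proliferating cells, a cluster with Top2a and Ube2c but led by Elane, Prtn3 and Mpo, genes of myeloid precursors, 3 control and 4 Arpc4ΔCx3cr1 mice had at least 10 cells. Of 9 members tested, Nlrc5 rose, where 1.84% of 3583 genes passed. All 9 had positive log2 fold changes, with a median of 0.82 against 0.0031 over all genes, and 5 had an unadjusted p below 0.05, as did 19.96% of all genes. Nlrc5 had 20.1, 29.8 and 0 CPM in the controls and 120, 78.1, 144 and 136 CPM in the Arpc4ΔCx3cr1 mice, without overlap (log2 fold change 2.59 ± 0.56, adjusted p = 0.0380, edgeR). The sums of this class held only 104010 to 187498 UMIs from 10 to 20 cells per mouse, so the Nlrc5 levels rest on few UMIs. The Nlrc5 call was lost without control mouse 1 or 3 or Arpc4ΔCx3cr1 mouse 3 or 4 (highest adjusted p = 0.193). With library totals, 83.9% of the genes that passed were higher instead of 72.7%, and the median of all genes moved to 0.13.

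The difference between genotypes in microglia-like cells was set against that in T cell-like cells of the same mice, on log2(CPM + 10). It was larger in microglia-like cells for 7 of 10 members, each with p = 0.0286 (exact two-sided permutation test over 8 mice, adjusted p = 0.0408), the smallest p this design gives. The excess was 2.49 for H2-Q7, 1.84 for Nlrc5, 1.55 for H2-D1 and 1.52 for H2-K1. For H2-Q4, Tap1 and B2m it was 1.00, 0.91 and 0.88. It did not pass for H2-T23 (0.43, adjusted p = 0.143 in the same exact test), Tapbp (0.42, adjusted p = 0.190) or Tap2 (−0.12, adjusted p = 0.600). Only the members were compared in this way, so the share of all genes with such an excess is not known. Within each class, edgeR passed 46.0% of the genes tested in microglia-like cells and 3.88% in T cell-like cells. With CAM-like and monocyte-like cells the difference between classes was not tested.

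**Figure D4:**
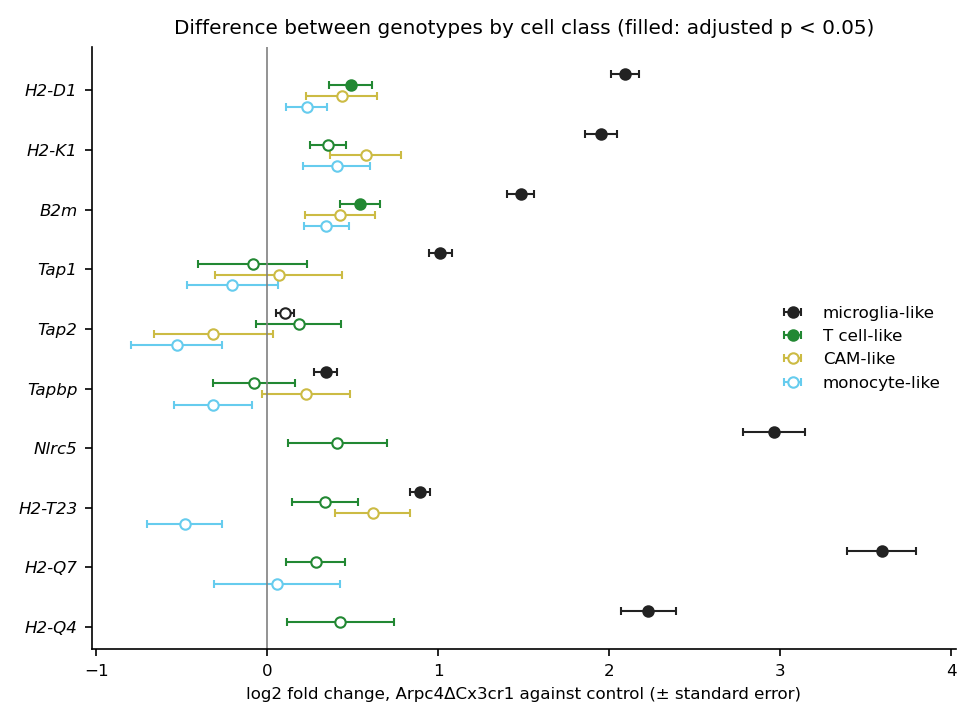
Log2 fold changes of Arpc4ΔCx3cr1 over control mice (points) with standard errors (bars) in 4 cell classes, filled where the adjusted p of edgeR is below 0.05. Microglia-like cells lie to the right except for Tap2, up to 3.59 for H2-Q7, while values of the other classes lie between −0.53 and 0.62, and members not tested in a class have no point.

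Levels were also ordered over the 4 classes with at least 10 cells in every mouse. In controls the microglia-like cells were the lowest for all 10 members by mean, and for 6 (H2-D1, H2-K1, B2m, Tap1, H2-T23 and H2-Q7) each control mouse was below every sum of the other 3 classes. In Arpc4ΔCx3cr1 mice the microglia-like cells were still the lowest by mean for H2-K1, Tap1 and H2-T23, but each mouse was below every other sum for 0 members. The shares of all genes with such orders were not computed, and the sums of the classes differed in depth, so these counts describe the members only. H2-D1 in controls averaged 511 ± 33.3 CPM in microglia-like, 1503 ± 125 in CAM-like and 1769 ± 31.3 in monocyte-like cells (SD, n = 4 mice each) and had 1542 to 1872 CPM in T cell-like cells, and neighbours among the last 3 overlapped. In Arpc4ΔCx3cr1 mice H2-D1 averaged 2025 ± 192 CPM in microglia-like, 1993 ± 334 in CAM-like, 2327 ± 387 in monocyte-like and 2326 ± 420.1 in T cell-like cells, and all 4 overlapped.

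For B2m, microglia-like cells went from the lowest class in controls (1183 ± 46.1 CPM, the others 1733 to 1856) to the highest by mean in Arpc4ΔCx3cr1 mice (2694 to 3448 CPM over mice, the means of the others 2307 to 2579), where they still overlapped monocyte-like and T cell-like cells. H2-K1 was highest in T cell-like cells of both genotypes, at 1835 ± 145 and 2248 ± 156 CPM, without overlap with the other classes. H2-Q7 kept the same top class, with 366 ± 61.7 CPM in control and 429 ± 78.6 CPM in Arpc4ΔCx3cr1 T cell-like cells, against 12.6 ± 1.95 and 141 ± 37.0 CPM in microglia-like cells. Nlrc5 averaged 75.4 ± 39.0 CPM in control T cell-like cells, above the 3 other classes without overlap. In Arpc4ΔCx3cr1 mice its level in microglia-like cells (91.1 ± 9.60 CPM) overlapped that in T cell-like cells (93.4 ± 15.3 CPM). Tapbp overlapped across all 4 classes in both genotypes.

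**Figure D5:**
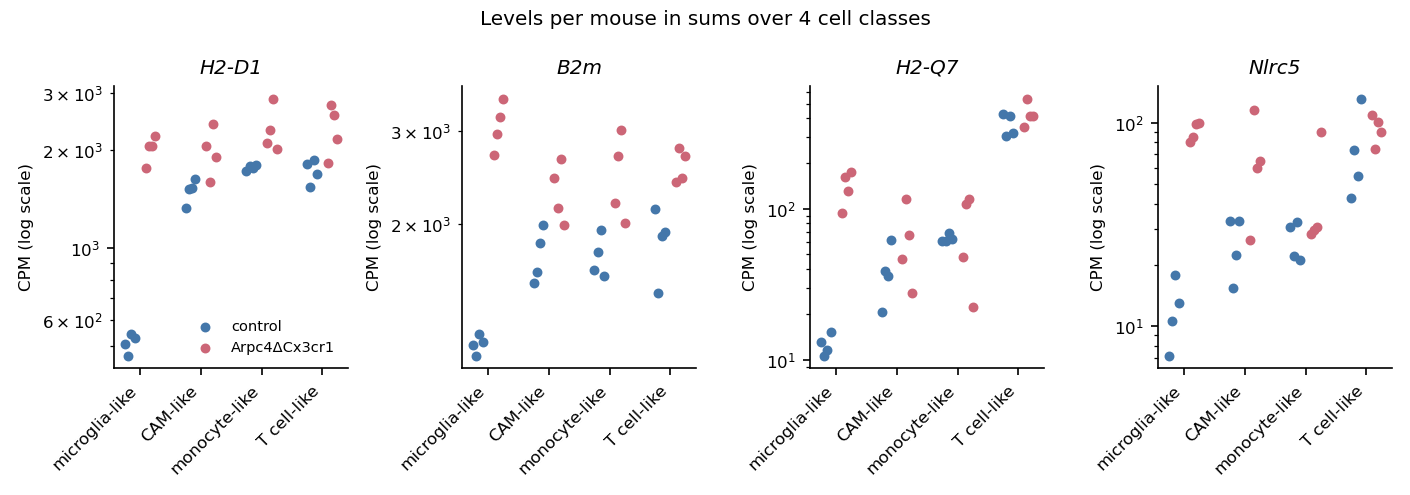
Levels of H2-D1, B2m, H2-Q7 and Nlrc5 (CPM, log axis) in the sums of 4 cell classes, 1 point per mouse, 4 mice per genotype. Control microglia-like cells are the lowest of the blue points for H2-D1 (467 to 544 CPM), B2m and H2-Q7, whereas the Arpc4ΔCx3cr1 points overlap between classes for H2-D1 and Nlrc5.

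Over 44 sums of class and mouse, the genes most like the mean of the members among 6807 compared were AW112010 (Pearson r 0.765), Il2rg (0.731), Sp100 (0.725), Epsti1 (0.703) and Runx3 (0.694). These sums share mice, a library and differing depth, and r is a description. In microglia-like cells each of the 5 was higher in Arpc4ΔCx3cr1 mice (Sp100 at 42.7 ± 3.50 and 227 ± 15.5 CPM). This is partly built in, since the sums of microglia-like cells were among the 44, and 44.2% of all genes did not overlap between genotypes there. Of the members themselves, H2-K1 (0.960) and B2m (0.888) were nearest to the mean and Tap2 (0.468) and Tapbp (0.497) farthest from it.

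All mice share the free RNA of a single pool. In the 1769098 barcodes with at most 100 UMIs, H2-D1 had 1865 CPM, H2-K1 1133 CPM and B2m 2618 CPM, each above control microglia-like cells. H2-Q7 had 102 CPM there, and its level in control microglia-like cells was 10.4 to 14.9% of that, so free RNA can make up at most that share of those sums. With 10% and with 25% of each sum subtracted by this profile, 9 members passed. Whether the amount of free RNA per cell was equal in the genotypes was not tested.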

How the data were processed

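The authors' counts are deposited raw UMIs per gene and barcode, made with Cell Ranger (6.1.2 in the submitters' processing notes, 7.1.0 in the file headers) on mm10 and split by CellPlex tag. Barcodes with 200 genes or more and no more than 20% mitochondrial UMIs were kept, and doublets were not called. Clusters (Seurat 5.3.0, R 4.3.3, resolution 0.8) were named from marker lists, and 2 of low depth (1006 and 502 cells) stayed in no class. The naming depended on resolution. A cluster of 1291 cells led by Hbb-bs, Hba-a1 and Hba-a2, 97.6% from Arpc4ΔCx3cr1 mice, was counted as microglia-like. At resolution 0.4, a cluster of 1627 cells led by Hbb-bs, Pf4 and Hba-a1 was named CAM-like. With that naming, 9 members passed in microglia-like cells. UMIs were summed per mouse and class (at least 10 cells), filtered with filterByExpr, scaled with TMM and tested across all genes with the quasi-likelihood test of edgeR 4.0.16 (Benjamini-Hochberg, 0.05), with DESeq2 1.42.0 as an alternative. Exact permutation tests were run in Python 3.11.15 with scipy 1.17.1. CPM beside fold changes are TMM-scaled, and those across classes and clusters use plain totals. Positions are from GENCODE, promoters from RefSeq. Named genes are the members, up to 3 largest rises and falls of each list past the threshold with at least 5 CPM, the 5 genes most like the members, and leading genes of clusters. Members and lists were chosen with earlier results of these data known, and the motifs after the sequences were seen.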

Additional observations from a re-analysis of the deposited data

Results flagged for a closer look

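Of 91 groups of 4 mice checked, 3 held a mouse far from the other 3, and chance marks about 1 in 20 such groups. Xist had 1444 CPM in the microglia-like cells of Arpc4ΔCx3cr1 mouse 1. H2-Q4 had 112 CPM in T cell-like cells of control mouse 3, and H2-Q7 had 83.1 CPM in its monocyte-like cells.

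The difference between genotypes was larger in microglia-like than in T cell-like cells for 7 members, by 1.55 (H2-D1), 1.52 (H2-K1), 0.88 (B2m), 0.91 (Tap1), 2.49 (H2-Q7), 1.00 (H2-Q4) and 1.84 (Nlrc5) on the log2 scale, each with p = 0.0286 in an exact permutation test, the smallest it can give. Genes other than the members were not compared in this way.

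Barcodes with at most 100 UMIs, which no comparison uses as cells, held more of 9 members than any control microglia-like sum: 1865 CPM of H2-D1, 1133 of H2-K1, 2618 of B2m, 52.0 of Tap1, 114 of Tapbp, 183 of H2-T23, 102 of H2-Q7, 30.5 of H2-Q4 and 37.2 of Nlrc5.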

How the results depend on the processing

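In microglia-like cells 9 members passed under 18 of 19 alternatives and 10 in cells thinned to 2000 UMIs, and the genes that passed numbered 4669 to 6516 (main 5857). The log2 fold change of H2-D1 ran from 1.99 to 5.26, of H2-Q7 from 3.47 to 13.18 and of B2m from 1.38 to 2.34, with the upper ends at 25% free RNA subtracted, more than the level of H2-Q7 in control microglia-like cells allows. Tap2 turned to −0.0040 with library totals.

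In T cell-like cells 1 member passed with DESeq2's Wald test, and 1 to 3 passed without a mouse. With library totals 2 members passed in monocyte-like cells. In proliferating cells, where alternatives were chosen after seeing the data, 2 passed with no filter and 0 to 1 without a mouse. The cause was not tested.

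The replicate numbers do not pair the mice (correlations −0.075, −0.010, −0.043 and −0.0025 of same-numbered mice, and no mouse was most like its own number). With the replicate block, 5521 genes and 9 members passed in microglia-like cells, 1 member in T cell-like cells (H2-D1 at adjusted p = 0.0554, edgeR) and 3 in proliferating cells.

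Leaving out a mouse, 4 values below the threshold turned sign: Tap1 in T cell-like cells (−0.31 to 0.036), Tapbp in T cell-like cells (−0.275 to 0.040), Tap1 in CAM-like cells (−0.22 to 0.29; −0.034 with no filter) and H2-Q7 in monocyte-like cells (−0.37 to 0.36). Per-cell differences without a mouse were 6 to 6.67, 9 to 10.3 and 13.2 to 14.9 UMIs, and they no longer passed. Likewise 0 members differed between microglia-like and T cell-like cells without a mouse. Both losses are fixed by the design, because exact permutation of 3 against 4 mice cannot go below p = 0.0571.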
